A study of Sparus aurata with 9 samples.

Results

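The livers of gilthead sea bream (Sparus aurata) exposed over 24 h to gold nanoparticles at 0.5 µg/L in the water were compared with the livers of fish held as long without particles. The comparison took the 3 arrays titled 0.5 µg/L and the 3 arrays titled Control, which are 6 of the 9 arrays of the study. The remaining 3, from fish at 50 µg/L, were left out of the test and are quoted only beside single sequences. From the 0.5 µg/L group and from the control group, 9 juveniles each, of about 50 g, were used on the arrays. In each group their liver RNA was combined into 3 pools of 3 fish, with 1 array per pool (n = 3). The particles, named AuNP in the labels, were the single agent, both groups were handled alike otherwise, and no genotype was given. The labels call 0.5 µg/L a concentration predicted for the environment. Fish of a condition shared duplicated tanks, so tank and exposure cannot be told apart, and p-values measure the spread between pools.

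Gold nanoparticles are particles of metallic gold with uses in imaging, drug delivery and catalysis, and some of what is made can reach coastal water. The liver is the organ in which fish make most plasma proteins, store and convert nutrients, and metabolise foreign compounds. Metals and oxidants are known to act on liver transcripts such as those of metallothioneins, which bind metals, and of antioxidant enzymes. The question of this comparison was whether the low concentration altered liver transcripts within a day. The array carries 28793 probes for 15156 sea bream sequences, known as assembled contigs or as single cDNA clones. The files pair none of them with a gene name, and 0 identifiers matched the gene table of assembly fSpaAur1.1. Pathways and the markers that define liver could therefore not be looked up, and results are given by sequence identifier. In whole tissue, fewer cells of a type and less RNA per cell cannot be told apart.

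No sequence passed the test between exposed and unexposed livers. After 24 h at 0.5 µg/L, limma with Benjamini-Hochberg adjustment called 0 of 5106 sequences at an adjusted p under 0.05 (0% called), with 0.243 as the smallest adjusted p and 0.665 as the next. Of the same sequences, 338 (6.62%) had an unadjusted p under 0.05, where uniform p-values would give 255.3, with 143 higher (2.8%) and 195 lower (3.82%) at 0.5 µg/L. Below 0.01 there were 71 beside 51.06, and below 0.001 there were 5 beside 5.106. A level here is the log2 signal of a sequence minus the 75th percentile of the sea bream spots on its array, averaged over its kept probes. A difference is the mean level at 0.5 µg/L minus that of controls.

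Most differences were small. The median was -0.02 on the log2 scale, and 2407 sequences were measured higher and 2699 lower at 0.5 µg/L. The central 90% ran from -0.53 to 0.48. The measured difference reached 2-fold for 81 sequences (1.59%), 36 higher and 45 lower, and 56 of these 81 rested on 1 kept probe. The pools of both groups did not overlap for 35 of them, 15 higher and 20 lower. Without overlap over all sizes there were 637 sequences (12.5%), with every 0.5 µg/L pool above every control pool in 288 (5.64%) and below in 349 (6.84%). Their median folds were 1.31 upward and 1.32 downward. With no effect at all, 3 pools against 3 would not overlap in a share of 0.10 of sequences, counting both directions. The 12.5% is close to that share and is not read as an effect.

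**Figure D1:**
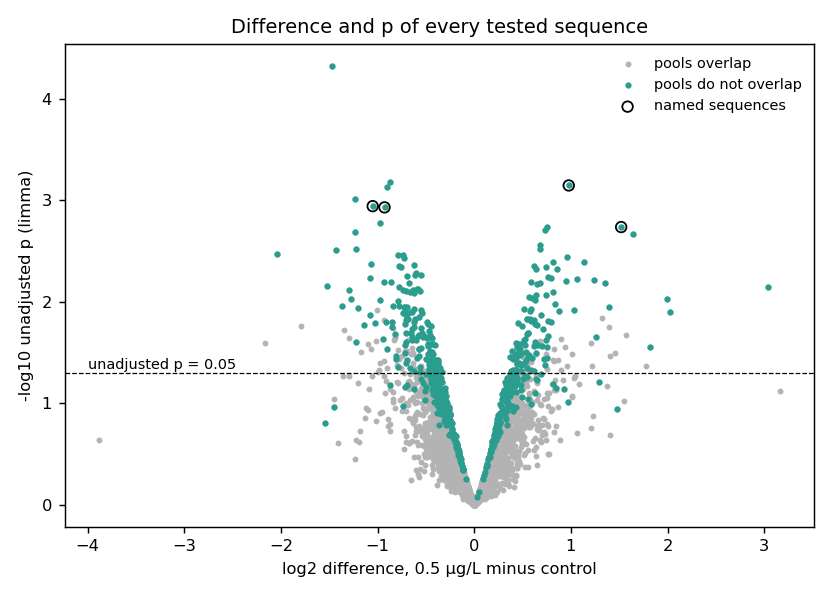
Each point is 1 of the 5106 tested sequences, with its log2 difference (0.5 µg/L minus control) on the horizontal axis and -log10 of its unadjusted limma p on the vertical axis. Green points are the 637 sequences whose pools did not overlap, and open circles mark 4 named sequences; the highest point has an adjusted p of 0.243.

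The precision of 3 pools against 3 limits what these data can show. The median SE of a difference was 0.21, and the 95% interval of limma reached a median of 0.48 to each side, as log2 differences. For 4179 sequences (81.8%) each sequence's own interval lay wholly inside a 2-fold change in either direction. For 1799 (35.2%) it lay inside a 1.5-fold change. In the remaining 927 sequences the interval reached 2-fold or more. Dim sequences were measured least precisely. With the sequences split into 3 equal sets by mean level, 73.9% of the dimmest had intervals within 2-fold, 85.0% of the middle set and 86.7% of the brightest, and the median half-width was 0.52, 0.46 and 0.46 in these sets. Each interval covers 1 sequence, with no allowance for the number tested.

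**Figure D2:**
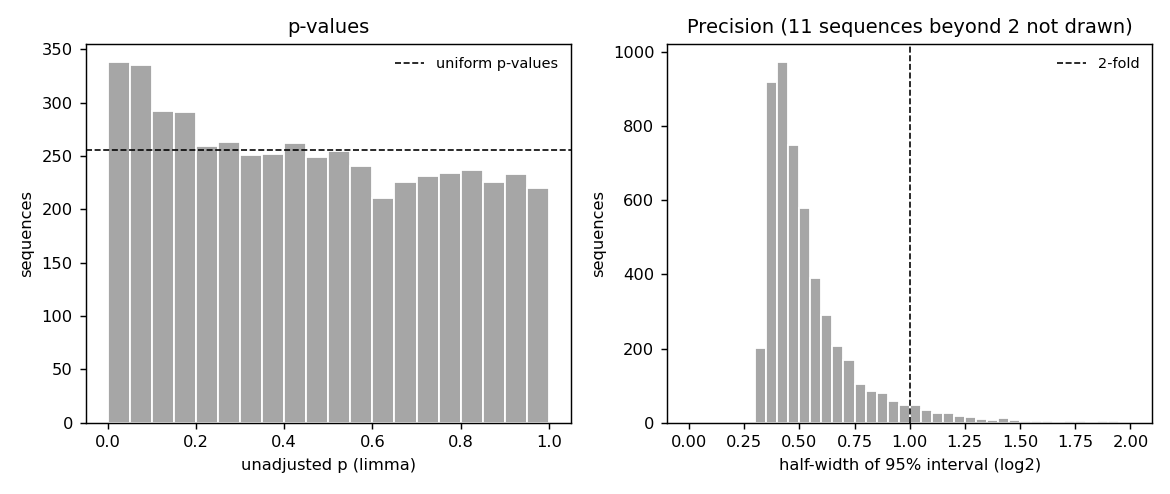
The left panel counts the 5106 sequences by unadjusted limma p in steps of 0.05, with a dashed line where uniform p-values would lie. The right panel counts them by the half-width of the 95% interval of the log2 difference, with a dashed line at 2-fold; most lie left of it, around a median of 0.48.

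Arrays correlated across groups about as closely as within them. Over the 5106 sequences, the 9 correlations between a 0.5 µg/L and a control array ran from 0.947 to 0.964, with a median of 0.960. Those among the 0.5 µg/L arrays ran from 0.955 to 0.964 and those among the controls from 0.957 to 0.973, both with a median of 0.960. These correlations share the same probes and describe the arrays only. The median SD between pools was 0.24 at 0.5 µg/L and 0.21 in controls, as log2 levels. A principal component analysis of the 6 arrays gave a first axis with 27.3% of the variance, along which the exposed pools lay at -22.6, 5.93 and -8.52 and the control pools at 16.7, 9.71 and -1.25. The groups overlapped there, because pool 2 at 0.5 µg/L lay among the controls. A second axis held 23.9% of the variance. Along it the exposed pools lay at -4.67, -13.4 and -2.80 and the control pools at -11.6, 16.8 and 15.6. Control pool 1 lay among the exposed pools on that axis, and the other controls lay apart from them. Taken within the 3 slides, each of which held 1 array of each group, the median differences were -0.001, -0.02 and -0.02. The scaling of each array largely sets these medians too, so they are not read as a result. Across sequences the differences of slides 2 and 3 correlated at 0.23, while slide 1 correlated with slide 2 at 0.01 and with slide 3 at 0.02.

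The number of probes well above background, the scanner software's flag for a spot clearly brighter than its surroundings, overlapped between the groups. Over all 28793 probes, 11962, 9598 and 7473 were flagged in the 0.5 µg/L pools and 13557, 9584 and 10252 in the control pools (exact two-sided permutation p = 0.50, where the smallest that 3 against 3 allow is 0.10). Pool 3 at 0.5 µg/L had the fewest and control pool 1 the most. A probe was kept for the test if flagged on all 3 arrays of either group, and 1872 of the 9100 kept probes passed through the controls alone, against 128 through the 0.5 µg/L pools alone. Of the kept probes, 8942, 8610 and 7307 were flagged in the 0.5 µg/L pools and 9088, 9010 and 9053 in the control pools. The filter itself favours this order, so no result is read from it. The log2 75th percentile averaged 7.76 ± 0.15 over the exposed arrays and 7.74 ± 0.35 over the control arrays (SD, n = 3 each). The median local background averaged 42.2 ± 1.5 intensity units over the exposed arrays and 42.2 ± 4.2 over the control arrays (SD, n = 3 each). The lowest processed signal was 36.4 on pool 3 at 0.5 µg/L, the highest such value of the 6 arrays, against 14.3 on control pool 1.

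**Figure D3:**
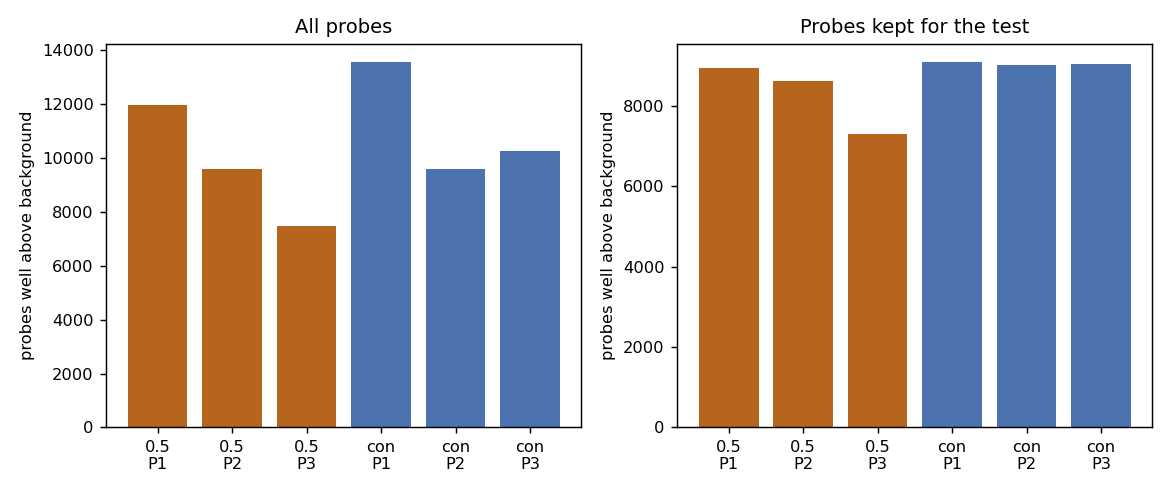
Bars give the number of probes flagged well above background on each of the 6 arrays, for all probes at left and for the 9100 kept probes at right, with the 0.5 µg/L pools (0.5, P1 to P3) left of the control pools (con, P1 to P3). Pool 3 at 0.5 µg/L has the fewest in both panels, 7473 and 7307.

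The balance of higher and lower sequences moved with that flag. Among the 3482 sequences whose kept probes were all flagged on all 6 arrays, 53.6% were measured higher at 0.5 µg/L. At an unadjusted limma p under 0.05 there were 108 higher and 70 lower (5.11% of the set, beside 6.62% of all tested). Among the other 1624 sequences 33.2% were measured higher, with 35 higher and 125 lower at that p (9.85%). Sequences without overlap of the pools were 238 higher and 169 lower in the first set (11.7%). In the second set they were 50 higher and 180 lower (14.2%), beside 12.5% of all tested. The excess of lower over higher sequences was thus found among those not flagged on every array, a set that the filter fills mainly through the controls, and no direction is read from it. Of the 5106 sequences, 31 had no kept probe flagged at 0.5 µg/L although all were flagged in every control pool. Measured means were 1.03-fold to 4.10-fold lower at 0.5 µg/L, with a median of 1.58-fold, from a dim side that was not well above background. Pools did not overlap for 13 of the 31, beside 12.5% of all tested sequences. The filter kept these 31 through the controls alone, which favours lower values at 0.5 µg/L, so no result is read from their folds or overlap. Limma's smallest adjusted p among the 31 was 0.665. A single sequence showed the opposite pattern, with a measured fold of 1.77.

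Several probes of one sequence give repeated readings of the same RNA, and 2259 of the tested sequences had more than 1 kept probe. In 1529 of them (67.7%) all probes lay on the same side. In 77 (3.41%) each probe by itself separated all 0.5 µg/L pools from all control pools. Taken singly, 12.3% of all kept probes did so. The share to be met without any effect was not worked out for several probes together, so the 77 are not read as an effect. Of the 77, 28 were higher, by 1.24-fold to 2.87-fold with a median of 1.46, and 49 were lower, by 1.12-fold to 2.88-fold with a median of 1.35. The difference reached 2-fold in 3 of the higher and 7 of the lower ones. These counts were not split by the background flag, which moved the balance above, and no direction is read from them. Probes share the pools they were read from, so their concordance adds no replicate of the exposure.

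The sequences with more than 1 kept probe and the smallest p are named here, 2 in each direction, and none of them passed (limma adjusted p = 0.665 for each). Picking by p favours pools that do not overlap, so the lack of overlap described below is not read as a result. Of the higher ones, the clone cDN01P0003K10.F.ab1 had log2 levels of 2.08, 2.43 and 1.92 in the 0.5 µg/L pools, against 1.10, 1.18 and 1.21 in the control pools. All exposed pools lay above all controls, by more than the range within either group. The log2 difference was 0.98 ± 0.18 (SE), with 0.94, 0.97 and 1.02 on its 3 probes, and all 3 probes were well above background on all 6 arrays. On slides 1, 2 and 3 it was 0.97, 1.25 and 0.71. The pools at 50 µg/L, outside this comparison, stood at 1.34, 0.28 and 1.31, 2 of them just above and 1 below the controls.

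The clone SCT936_H10_JP6_1_H10_066.ab1 had log2 levels of 2.22, 0.98 and 2.15 in the 0.5 µg/L pools, against 0.34, 0.18 and 0.27 in the control pools. The controls lay close together, while pool 2 at 0.5 µg/L stood well below the other exposed pools and still above every control. The log2 difference was 1.52 ± 0.33 (SE), a fold of 2.87, and its 3 probes gave differences between 1.44 and 1.58. At 50 µg/L the pools scattered from -1.01 to 1.44, on both sides of the controls.

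Of the lower ones, the clone cDN01P0001P05.F.ab1 had log2 levels of -0.24, 0.37 and 0.13 in the 0.5 µg/L pools, against 1.23, 1.27 and 0.91 in the control pools. The groups did not overlap. The log2 difference over its 3 probes was -1.05 ± 0.21 (SE), and it was -1.47, -0.91 and -0.77 on slides 1, 2 and 3. The probe that was well above background on all 6 arrays gave -0.75. Of the others, 1 was so on 2 of the 0.5 µg/L arrays and 1 on none, and they gave -1.19 and -1.21. The filter kept these others through the controls alone, which favours lower values at 0.5 µg/L. The 50 µg/L pools, at 1.72, 0.76 and 1.33, spanned the control values.

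The clone cDN02P0002O19.F.ab1 had log2 levels of -0.57, -0.14 and -0.47 in the 0.5 µg/L pools, against 0.66, 0.33 and 0.61 in the control pools. Here too every exposed pool lay below every control. The log2 difference was -0.93 ± 0.18 (SE), with probe differences of -0.96, -0.91 and -0.91. Of its 3 probes, 1 was well above background on all 3 of the 0.5 µg/L arrays, 1 on 2 of them and 1 on a single one, and all were so on every control array. The probes not so on all 3 exposed arrays were kept through the controls alone, which favours lower values at 0.5 µg/L. The 50 µg/L pools stood at 1.58, 0.67 and 0.95, above all control pools.

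**Figure D4:**
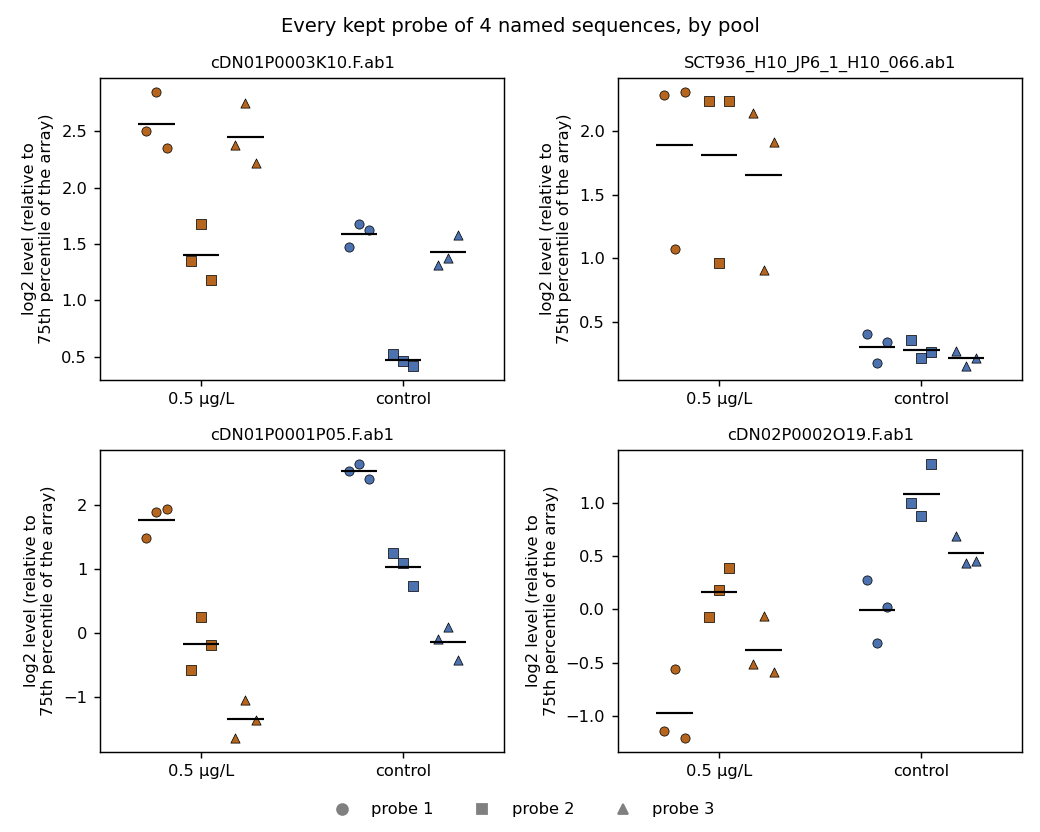
Each panel shows 1 named sequence, with the log2 level of its 3 probes (circles, squares and triangles) in the 0.5 µg/L pools at left and the control pools at right; horizontal bars are group means over 3 pools. Within each probe the pools of both groups do not overlap, although no sequence passed the adjusted threshold. The sequences were picked by p, so this lack of overlap is not read as a result.

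Among all 20 sequences with the smallest p, 7 were higher and 13 lower at 0.5 µg/L, with measured folds from 1.60 to 4.10, and 11 rested on 1 kept probe. The largest of these folds was that of a sequence with no kept probe well above background on any 0.5 µg/L array. The 20 were not split by the background flag, which moved the balance above, and no direction is read from them. The smallest p of the comparison (4.8e-05, limma adjusted p = 0.243) belonged to the clone cDN08P0005P12.F.ab1, which was picked once its values had been seen. It has 1 probe on the array. Its log2 levels were -0.62, -0.72 and -0.79 at 0.5 µg/L and 0.56, 1.04 and 0.69 in controls, a difference of -1.47 ± 0.18 (SE). It was well above background on 2 of 3 arrays at 0.5 µg/L and on all 3 control arrays. The filter thus kept it through the controls alone, which favours lower values at 0.5 µg/L. The pools at 50 µg/L stood at -0.59, -1.91 and -2.16, 1 of them just above and 2 below every 0.5 µg/L pool. Only 1 of these 3 arrays was well above background. Only 2 sequences were at least 2-fold apart on each of the 3 slides, this clone, which was lower at 0.5 µg/L, and a contig that was higher, Seabream_2006-01-03-CL1328Contig1 (log2 difference 1.46, limma adjusted p = 0.735). Both rested on 1 kept probe and were picked after the values were known.

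The share of sequences without overlap varied little between kinds of identifier. Pools did not overlap for 12.6% of 2197 clones of the cDN sets, 12.2% of 1495 sequences named Contig, 12.4% of 1262 Seabream contigs, 13.1% of SCT clones and 13.6% of 44 Mackenzie contigs, beside 12.5% of all. Over the 14 cDN sets the share ran from 8.97% to 16.4%, and the median difference from -0.04 to 0.04. The median difference was 0.001 for cDN clones, -0.05 for sequences named Contig, -0.02 for Seabream contigs, -0.004 for SCT clones and 0.04 for Mackenzie contigs.

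The range over the 6 pools, which holds both the spread within groups and the difference between them, was at least 16-fold for 14 sequences. Of these, 2 had more than 1 kept probe, and 4 had an unadjusted p under 0.05. The widest was that of Contig3669, also picked once its values had been seen. It stood at log2 levels of -3.51, -2.66 and 8.26 in the 0.5 µg/L pools, against 3.14, 7.62 and 2.98 in the control pools. Exposed pools 1 and 2 lay far below every control, with no probe well above background, and pool 3 lay above every control. The log2 difference was thus -3.88 ± 2.96 (SE), the most negative of the comparison, with a limma adjusted p of 0.834. Its 3 probes gave log2 levels of 8.25 to 8.28 in pool 3 at 0.5 µg/L and of -3.65 to -3.44 in pool 1. In pool 1 none was well above background, so nothing is read from their agreement there or from the size of the range. In pool 2 at 0.5 µg/L, where none was well above background, they were further apart, at -2.53, -3.14 and -2.30. The other of the 14 with more than 1 kept probe was Contig3555. It stood at 0.70, 1.84 and 3.97 in the 0.5 µg/L pools and 0.48, 0.77 and -0.07 in the control pools. Only pool 2 and pool 3 at 0.5 µg/L lay above all controls.

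**Figure D5:**
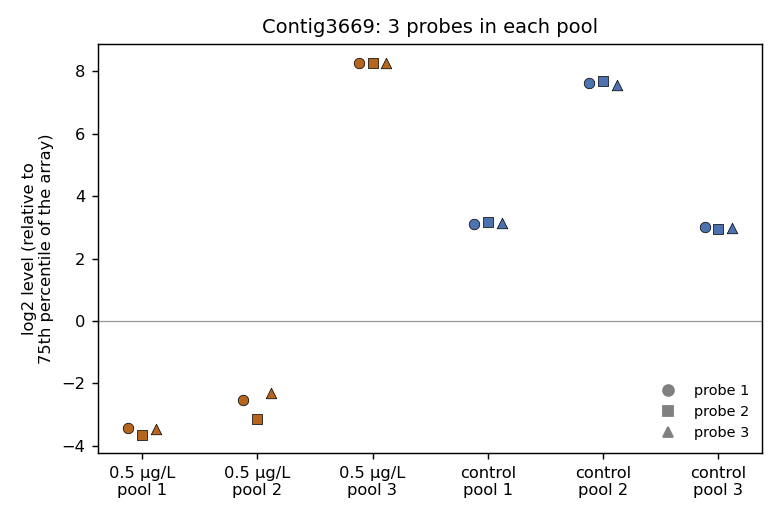
The log2 level of the 3 probes of Contig3669 (circles, squares and triangles) is shown for each of the 6 pools, the 0.5 µg/L pools left of the control pools. The probes lie close together within a pool, least so in pool 2 at 0.5 µg/L, while pools of one group differ, from -3.51 to 8.26 at 0.5 µg/L and from 2.98 to 7.62 in controls. In pools 1 and 2 at 0.5 µg/L no probe was well above background.

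Single pools that stood 2-fold or more above all 5 others gave 11, 10 and 8 sequences for the 0.5 µg/L pools and 9, 16 and 7 for the control pools. For 2-fold or more below all others the counts were 16, 18 and 22 at 0.5 µg/L and 35, 18 and 14 in controls. Control pool 1 had the most of these. Without control pool 1, limma called 1 sequence, the clone cDN09P0004J02.F.ab1 with 1 kept probe, at an adjusted p of 0.0490; it too was picked after that result. Its log2 levels were 0.92, 0.86 and 0.76 at 0.5 µg/L and 0.11, -1.15 and -1.35 in controls, so control pool 1 lay between the exposed pools and the other controls. With all 6 arrays its log2 difference was 1.64 and its limma adjusted p was 0.665.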

How the data were processed

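Per the labels' protocols, 200 ng of RNA per pool was labelled with Cy3. The arrays were extracted with Agilent Feature Extraction 10.7.3.1, per the file headers. In the deposited scanner files every spot has linear intensity values, among them a processed signal from which background was subtracted. The authors' deposited table holds the log2 of each background-subtracted signal, unscaled between arrays. The medians of its columns were 7.01, 6.69 and 7.04 at 0.5 µg/L and 7.00, 6.58 and 6.55 in controls. Scale, centring and direction are known.

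Of 45220 spots, 43803 carry sea bream probes, and none was saturated. Their processed signal was taken as log2 minus the 75th percentile of these spots on the array. Outlier-flagged spots were dropped unless all spots of a probe were flagged, and spots were averaged per probe and kept probes per sequence. A probe was well above background if at least 0.5 of its spots were flagged so, and kept if this held on all 3 arrays of either group. The fit was limma 3.58.1 (R 4.3.3; lmFit and eBayes, 3.62 prior and 4 residual degrees of freedom), two-sided, with Benjamini-Hochberg adjustment over 5106 sequences at 0.05. Its code was checked on arrays simulated from its own variances with known changes, which does not show how well the fit suits these arrays. For sequences not well above background in a whole group, setting the dim side at the lowest signal of any probe well above background changed no value, since their own signal was not lower, so folds are given as measured.

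Pool numbers coincided with slides. Deviations of same-numbered pools from their group means correlated at -0.08, 0.02 and 0.03. So few slides cannot settle whether the numbers pair the pools, and the fit without a block is set beside fits with one. Each group sat at 1 fixed position of the slides, which cannot be told apart from the exposure. All arrays were scanned on the same day, and their number limits the precision. The named sequences are the 2 with the smallest p in each direction among those with more than 1 kept probe, all of the same sign. Members, rules and lists were chosen with earlier results of these data known, and lists of liver, pancreas, blood cell and stress genes could not be applied. Alternatives were other background corrections, scalings, filters, blocks, variance models and values, probes as the unit, and each array left out.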

Additional observations from a re-analysis of the deposited data

How the results depend on the processing

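Limma's count of 0 held under 22 of 24 other settings; the exceptions were 1 sequence without control pool 1 and a rule of 1.5-fold at an unadjusted p under 0.01, which let through 67 (30 higher, 37 lower). The smallest adjusted p of other settings was 0.0678 with spike-in scaling, 0.0782 without pool 2 at 0.5 µg/L and 0.0983 with array weights. With the pool number as a replicate block limma called 0 (smallest adjusted p 0.767; 316 at an unadjusted p under 0.05), and in no pool did an exposed array correlate best with its own number. Counts at an unadjusted p under 0.05, 338 as reported, were 137 with normexp, 193 with spike-in scaling, 203 with the deposited values, 569 with array weights, 585 of 9100 with probes as the unit and 827 of 15156 without the dim filter (692 higher, 135 lower). They ran from 237 to 416 when 1 array was left out. The split of higher to lower, 143 to 195 as reported, was 81 to 214 with median centring, 23 to 114 with normexp, 38 to 155 with spike-ins, 51 to 274 with the deposited values at their 75th percentile, 164 to 150 with the percentile over probes well above background on all 6 arrays, and 129 to 97 with such probes alone. The median difference was -0.02 as reported. It was -0.075 with normexp, -0.081 with median centring, 0.016 with that percentile and -0.15 with spike-ins. With such probes alone it was 0.014, with scaled deposited values -0.14 and without the filter 0.22. The sign of this median thus differed between settings. The scaling largely sets it, so no shift is read from it, and its cause was not tested. Leaving out 1 array gave -0.05 to 0.005, and for probes well above background a group difference of -2596 to -240.3 (-1453 with all 6). The 4 named sequences kept their direction under all 22 settings that apply to single sequences, and none passed. With 1 array left out, or with array weights, the direction was fixed in advance, because their pools do not overlap. It was also fixed with probes as the unit and with probes well above background on all 6 arrays, because each probe separated the groups. The differences were unchanged by the fit of all arrays, the blocks, the variance trend, kept outlier-flagged spots or no dim filter. These settings do not test direction either. The rest changed the background correction, the scaling or the values, and the kept direction is not read as support. Sizes moved, most with normexp, which was run on the median spot signal with an offset of 50 intensity units. An added offset shrinks log2 differences by construction, so nothing is read from these sizes or from the 137. With normexp cDN01P0003K10.F.ab1 went from 0.98 to 0.58 and cDN02P0002O19.F.ab1 from -0.93 to -0.49. In the same setting, cDN01P0001P05.F.ab1 went from -1.05 to -0.64 and SCT936_H10_JP6_1_H10_066.ab1 from 1.52 to 1.04.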

Other observations

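Probes outside the filter also held signals confined to 1 pool. The filter asks for all 3 arrays of a group, so probes flagged in 1 pool only lie outside it by construction. It kept 9100 of the 28793 probes. Of the probes left out, 27, 41 and 23 were at least 8-fold brighter on 1 array at 0.5 µg/L than on the 5 other arrays, against 23, 65 and 29 on the control arrays. Control pool 2 had the most, and no pool at 0.5 µg/L exceeded it.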
